A study of Mus musculus with 59 samples.

Results

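The 8 genes described here are Thy1, Dcn, Lum, Postn, Fbn1, Acta2, Tagln and Lox, a set of symbols chosen as markers of the fibroblasts that serve as feeder cells, and all 8 were found among the 24391 gene symbols of the deposited tables. Their levels were read in 59 RNA-seq libraries of mouse embryonic stem cells (ESCs) and of embryoid bodies (EBs), the aggregates that ESCs form when they differentiate. Levels are given as TPM, a unit that divides reads by transcript length and sets every library to the same total. Such a table does not record the reads behind each value, so the counting error of low values is unknown.

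Fibroblasts build the connective tissue matrix, and embryonic fibroblasts are laid under ESCs as a feeder layer that helps to keep them undifferentiated. Decorin (Dcn) and lumican (Lum) are small proteoglycans that bind collagen fibrils, periostin (Postn) is a matrix protein of fibroblasts, fibrillin 1 (Fbn1) forms the microfibrils of elastic fibres, and lysyl oxidase (Lox) cross-links collagen and elastin. Smooth muscle actin (Acta2) and transgelin (Tagln) belong to the contractile stress fibres of smooth muscle cells and activated fibroblasts, and serum response factor is a known regulator of both. Thy1 is a surface glycoprotein that fibroblasts share with T cells and neurons.

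In this study ESCs were grown on mouse embryonic fibroblasts with LIF and 3 inhibitors (SU5402, PD184352 and CHIR99021). EBs were made by 2 days of suspension culture without LIF and these inhibitors. The sources used here do not state whether fibroblasts were removed before RNA was taken from ESCs, or were carried into EBs. All groups carried ERT2-Cre, a recombinase that 4-hydroxytamoxifen (4-OHT) switches on, so each line gave its own untreated control and 4-OHT-treated mutant. Polycomb repressive complex 1 (PRC1) silences developmental genes and has RING1A or RING1B as its catalytic subunit and 1 of several PCGF proteins as partner. The Pcgf1 line had 4 control ESC, 5 control EB, 5 mutant ESC and 5 mutant EB libraries, with the genotypes ERT2-Cre;Pcgf1f/f without 4-OHT and ERT2-Cre;Pcgf1delta/delta with it (Pcgf1-KO). The point mutant line had 2 libraries in each of the 4 groups, with ERT2-Cre;Ring1apm/pm;Ring1b without and ERT2-Cre;Ring1apm/pm;Ring1bpm/pm with 4-OHT, so that its controls already carried the Ring1A point mutation. The same 4 groups, again with 2 libraries each, were made from ERT2-Cre;Ring1a-/-;Ring1bf/f, ERT2-Cre;Pcgf2f/f;Pcgf4f/f, ERT2-Cre;Pcgf3f/f;Pcgf5f/f and ERT2-Cre;Pcgf6f/f cells, in which 4-OHT deleted the floxed alleles, and the controls of the first of these lacked Ring1A. No label says whether replicates came from separate cultures, so p-values measure the spread between libraries, which may be technical, and each genotype was studied in 1 line.

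The labels were checked before the genes were compared. Pcgf1 itself was at 7.30 to 16.6 TPM in the 9 control libraries of its line and at 0.627 to 2.77 TPM in the 10 Pcgf1-KO libraries, without overlap. In the Pcgf1 and point mutant lines the stage in the file name and in the label were the same for all 27 libraries. In the other 4 lines they differed in 14 of 32 libraries, and values there are given by both. Counting the treatment state as well, the label and the file name differed in 21 of these 32 libraries, and labelled treatment states were not compared there. No pair of libraries held identical values.

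The name of the set was only partly borne out by its defining members. Lum was listed at 0 in 48 of the 59 libraries and never exceeded 0.273 TPM. Dcn was listed at 0 in 19 libraries and was under 1 TPM in 48. Thy1 and Tagln were above 1 TPM in every library, with medians of 11.6 and 10.01 TPM, and Acta2 had a median of 7.62 TPM. Fibroblast activation protein (Fap) stayed at or below 0.225 TPM in all 27 libraries of the Pcgf1 and point mutant lines. The list of 24 other fibroblast genes that holds Fap summed to 2133 to 4890 TPM over control ESCs of the Pcgf1 line. Much of this sum was Fn1 and Sparc, whose levels are given further below. Pou5f1, the ESC factor OCT4, lay between 1027 and 2367 TPM in all 59 libraries. The set is therefore described gene by gene below, without treating its sum as a measure of feeder cells. In bulk RNA, fewer cells of a type and less RNA per cell cannot be told apart.

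The RefSeq promoters used (mouse build GRCm38.p6) held only 3 of the 8 genes, Acta2, Postn and Fbn1, and these are shown. In the Pcgf1 line Postn was called lower in EBs of both states, Acta2 in Pcgf1-KO cells, and Fbn1 in neither state without a block. Each window runs from 250 bases before to 50 bases after a start site, on the strand of the gene. Capitals mark the letters TATAAA and the CArG box, the binding motif of serum response factor, with at most 1 of its 6 middle letters other than A or T, searched on both strands.

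Acta2, chr19:34255324-34255623, minus strand: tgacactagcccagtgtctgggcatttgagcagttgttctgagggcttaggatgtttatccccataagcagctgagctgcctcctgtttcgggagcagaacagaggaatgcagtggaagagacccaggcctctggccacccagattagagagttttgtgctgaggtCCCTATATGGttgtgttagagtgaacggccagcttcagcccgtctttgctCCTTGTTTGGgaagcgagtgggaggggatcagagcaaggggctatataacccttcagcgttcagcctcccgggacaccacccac
Postn, chr3:54360857-54361156, plus strand: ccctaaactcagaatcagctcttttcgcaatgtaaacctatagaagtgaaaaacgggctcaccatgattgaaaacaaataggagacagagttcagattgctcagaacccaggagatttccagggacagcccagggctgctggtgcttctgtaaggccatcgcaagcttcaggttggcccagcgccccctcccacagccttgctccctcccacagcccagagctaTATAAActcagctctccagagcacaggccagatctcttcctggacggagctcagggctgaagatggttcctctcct
Fbn1, chr2:125506389-125506688, minus strand: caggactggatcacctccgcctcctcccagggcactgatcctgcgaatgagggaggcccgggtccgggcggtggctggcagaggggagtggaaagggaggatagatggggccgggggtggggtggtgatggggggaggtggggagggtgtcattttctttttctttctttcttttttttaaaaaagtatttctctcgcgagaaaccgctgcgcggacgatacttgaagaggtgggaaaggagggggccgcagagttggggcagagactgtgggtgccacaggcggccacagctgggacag

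The Acta2 window held 2 such CArG boxes, starting at positions -84 and -34 relative to the start site, and neither was a full match with all 6 middle letters A or T. Among 32851 mouse promoter windows of the same length, 9.98% held at least 1 match and 0.822% held 2 or more. The Postn window shown, the downstream of 2 listed starts, held TATAAA at position -26, and 13.6% of all windows held these letters somewhere. The window of the upstream Postn start, which is not shown, and the Fbn1 window held neither motif. Fbn1 had 14 CpG dinucleotides in its window, against 5 for Postn, 6 for Acta2 and a median of 7 over all windows.

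In mm9, the build of the deposited tables, the genes lie apart from one another except for Dcn (chromosome 10, 96942245 to 96980777, plus strand) and its neighbour Lum (chromosome 10, 97028135 to 97035337, plus strand). Thy1 (chromosome 9, 43851467 to 43856662, plus strand) and Tagln (chromosome 9, 45737711 to 45744141, minus strand) share a chromosome without being neighbours. Postn is on chromosome 3 (54165031 to 54194961, plus strand), Fbn1 on chromosome 2 (125126330 to 125333729, minus strand) and Acta2 on chromosome 19 (34315580 to 34329826, minus strand). Exons of Tagln overlap those of Pcsk7 on the opposite strand, and whether reads were counted by strand is not given in the sources used here. Pcsk7 ranged from 4.31 to 10.9 TPM over the 27 libraries of the Pcgf1 and point mutant lines, and the part of Pcsk7 reads in the Tagln values was not tested. Fbn1 exons overlap the opposite-strand gene Gm9913, which was not used here.

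The question for each line was how the 8 genes stood in ESC against EB libraries. In the Pcgf1 line the matrix genes Lox and Postn were lower in control EBs than in control ESCs by more than an order of magnitude, Tagln was lower by less, and Thy1 and Dcn were higher. Log2 fold changes were taken on log2(TPM + 0.1), tested with limma across all genes and adjusted by the Benjamini-Hochberg method, and a gene was called at an adjusted p under 0.05. By this rule 2 of the 8 genes were higher and 3 lower in control EBs, against 11.5% and 13.4% of the 20594 genes tested. The median log2 fold change of the 8 was -1.06.

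Lox had the largest log2 fold change of the 8 genes in this line. The control ESC libraries had 26.7, 12.7, 17.3 and 16.9 TPM of Lox, and the control EB libraries had 0.409, 0.940, 1.49, 0.0965 and 0.370 TPM. Every EB library lay below every ESC library, and Lox fell by 4.90 on the log2 scale (SE 0.521, limma, adjusted p = 2.23e-06). In Pcgf1-KO cells Lox was at 20.9, 12.1, 9.89, 12.01 and 12.4 TPM in ESCs and at 0.346, 0.180, 0.868, 0.119 and 0.187 TPM in EBs. This was a change of -5.12 (SE 0.491, limma, adjusted p = 7.87e-07), again without overlap.

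Postn had the same order at a lower level. Control ESCs had 3.66, 3.35, 3.27 and 2.68 TPM, and control EBs had 0, 0.176, 0, 0.217 and 0.0462 TPM. The log2 fold change was -4.32 (SE 0.440, limma, adjusted p = 1.47e-06), a value that depends on the pseudocount because 2 EB libraries were listed at 0. In Pcgf1-KO cells the ESC libraries lay between 1.86 and 3.39 TPM and the EB libraries between 0 and 0.238 TPM, a change of -4.14 (SE 0.415, limma, adjusted p = 1.32e-06).

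**Figure D1:**
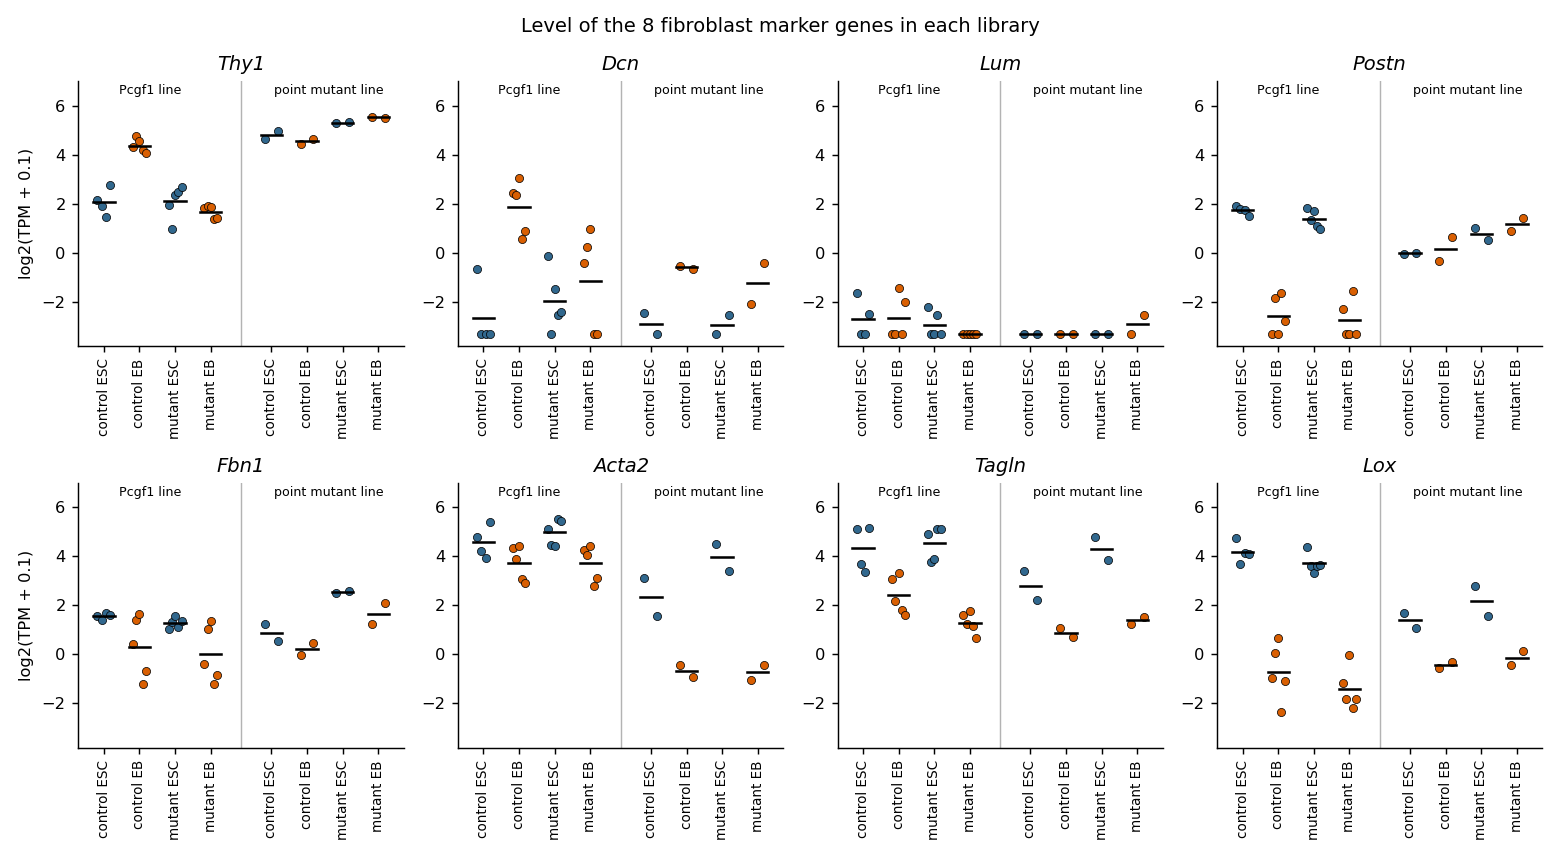
Level of each gene in every library of the Pcgf1 line (left of each panel) and the point mutant line (right), as log2(TPM + 0.1), with ESC libraries in blue and EB libraries in orange and the group mean as a bar. Lox and Postn separate ESCs from EBs in the Pcgf1 line, Thy1 is highest in the control EBs of that line, and Lum lies at or near the floor in every group.

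The contractile genes Tagln and Acta2 moved less evenly. Tagln was at 34.1, 12.8, 10.02 and 35.2 TPM in control ESCs and at 8.36, 4.39, 10.01, 3.45 and 2.98 TPM in control EBs, so that the ranges nearly met without crossing. It fell by 1.91 on the log2 scale (SE 0.448, limma, adjusted p = 0.0039). The call was lost when replicates 4 and 5, which share the start of their library identifiers, were left out of all groups (-1.18, limma, adjusted p = 0.12). In Pcgf1-KO cells Tagln went from 13.4 to 34.9 TPM in ESCs to 1.51 to 3.30 TPM in EBs, a change of -3.27 (SE 0.422, limma, adjusted p = 2.13e-05), and the 5 same-numbered pairs differed by -4.41 to -2.14.

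Acta2, on average the most abundant of the 8 in control ESCs of this line, had 27.4, 18.3, 15.2 and 41.8 TPM in control ESCs and 20.1, 14.7, 21.2, 8.23 and 7.34 TPM in control EBs. The groups overlapped and the difference did not pass (log2 fold change -0.86, SE 0.411, limma, adjusted p = 0.145). In Pcgf1-KO cells, where ESCs had 34.4, 22.1, 21.1, 45.5 and 43.1 TPM and EBs 19.1, 16.4, 21.5, 6.87 and 8.52 TPM, it passed at -1.26 (SE 0.388, limma, adjusted p = 0.0291), although the highest EB library, at 21.5 TPM, lay above the lowest ESC library, at 21.1 TPM. The call was lost without replicates 4 and 5 (-0.42, adjusted p = 0.40) and without replicate 1 (-1.36, adjusted p = 0.0601), each left out of all 4 groups. It was also lost when 1 Pcgf1-KO library was left out, namely the ESCs of replicate 1, 4 or 5 or the EBs of replicate 4 or 5, with values of -1.23 to -1.03 and adjusted p of 0.0562 to 0.0792 in limma.

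The spread of these genes followed the library identifiers, which split the Pcgf1 line into 3 series: replicate 1, replicates 2 and 3, and replicates 4 and 5. In the control libraries of the second series Acta2 differed between EBs and ESCs by 0.08 on the log2 scale, Fbn1 by -0.01 and Tagln by -0.77. In the third series the same differences were -2.41, -2.55 and -3.42, with 1 ESC and 2 EB libraries. ESC libraries of the third series had 34.1 to 35.2 TPM of Tagln against 10.02 to 14.9 TPM in the second, while its EB libraries had 1.51 to 3.45 TPM against 2.24 to 10.01 TPM. The labels do not say what the series are, and what they contribute to the differences was not tested beyond leaving each of them out.

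Fbn1 and Lum were not called in either state without a block. Fbn1 had 2.87, 2.57, 3.10 and 2.95 TPM in control ESCs, a narrow range, and 1.223, 2.58, 3.04, 0.336 and 0.523 TPM in control EBs (log2 fold change -1.25, SE 0.578, limma, adjusted p = 0.132). Among Pcgf1-KO libraries all 5 same-numbered pairs were lower in EBs, with differences of -2.33 to -0.17. The change of -1.28 passed when the replicate number or the library series was entered as a block (limma, adjusted p = 0.12 without a block, 0.0262 with the replicate number and 0.0168 with the series). In controls it passed with the series (-1.09, limma, adjusted p = 0.0452) and not with the replicate number (-1.10, limma, adjusted p = 0.0625). Lum was listed at 0 in 2 of 4 control ESC, 3 of 5 control EB, 3 of 5 Pcgf1-KO ESC and all 5 Pcgf1-KO EB libraries, and no difference was detectable at such levels.

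In Pcgf1-KO cells 4 of the 8 genes were thus lower in EBs (Postn, Acta2, Tagln and Lox), against 10.2% of all genes tested, and none was higher, against 8.13%. The median over the 8 was -1.27. The number lower was 5 with the replicate block or the series block, each of which added Fbn1.

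**Figure D2:**
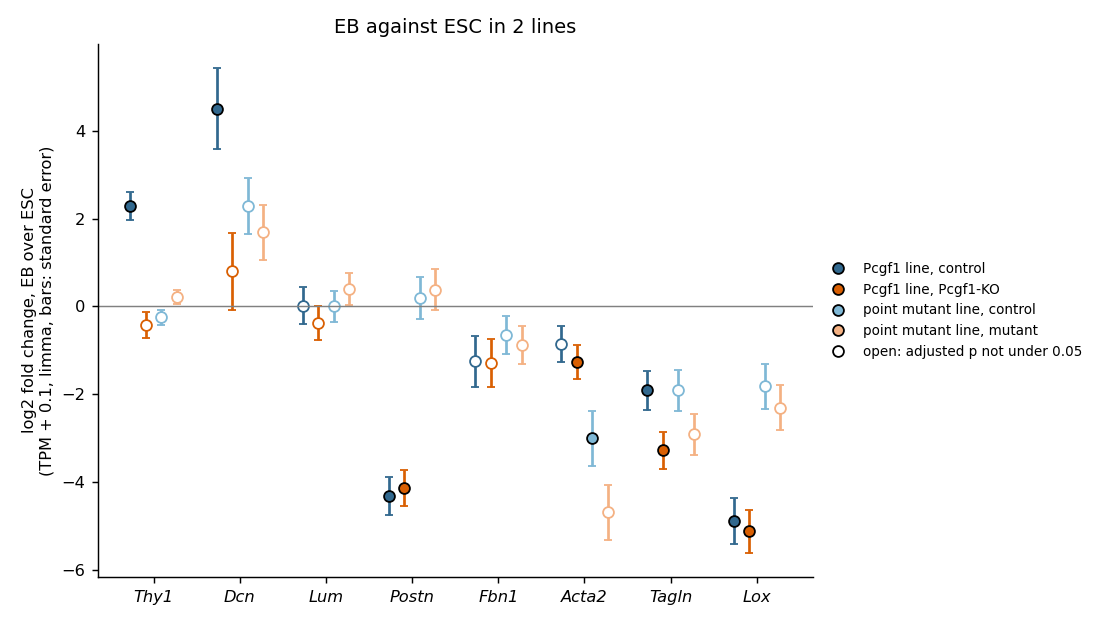
Log2 fold change of EBs over ESCs for each gene on the log2(TPM + 0.1) scale with its standard error, in 4 comparisons, with filled points where the adjusted p was under 0.05. Lox and Postn lie below -4 in both states of the Pcgf1 line, and Thy1 lies at 2.29 in its controls but at -0.42 in Pcgf1-KO cells.

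Thy1 and Dcn went the other way in controls. Thy1 was at 4.38, 3.67, 2.62 and 6.73 TPM in control ESCs and at 19.6, 26.7, 23.2, 17.97 and 16.4 TPM in control EBs, a rise of 2.29 on the log2 scale (SE 0.320, limma, adjusted p = 3.96e-05) that all 4 same-numbered pairs showed, with differences of 1.403 to 3.10. Dcn was at 0.536, 0, 0 and 0 TPM in control ESCs and at 5.26, 5.01, 8.16, 1.37 and 1.75 TPM in control EBs, with no overlap. The fitted change of 4.51 (SE 0.922, limma, adjusted p = 0.00135) depends on the pseudocount, since 3 of the 4 ESC libraries were listed at 0. Without replicates 2 and 3 of all groups it was 3.28 and no longer passed (limma, adjusted p = 0.0796).

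In Pcgf1-KO cells neither gene was called. The ESC libraries had 3.78, 1.87, 5.06, 5.49 and 6.33 TPM of Thy1 and the EB libraries 3.45, 3.59, 3.57, 2.49 and 2.55 TPM, so that the EB libraries lay within the ESC range (log2 fold change -0.42, SE 0.302, limma, adjusted p = 0.401). The ESC libraries had 0.817, 0, 0.263, 0.0725 and 0.0864 TPM of Dcn and the EB libraries 0.656, 1.07, 1.83, 0 and 0 TPM (log2 fold change 0.80, SE 0.870, limma, adjusted p = 0.609).

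Loss of Pcgf1 was compared next within each stage. In ESCs none of the 8 genes was called by limma, against 0.641% of all genes, and none had an unadjusted p under 0.05, while 1777 of 20594 genes did. In EBs 1 of the 8, Thy1, was lower in Pcgf1-KO cells, against 0.874% of all genes called lower. Pcgf1-KO EBs had 2.49 to 3.59 TPM of Thy1 and control EBs 16.4 to 26.7 TPM, which is a log2 fold change of -2.69 (SE 0.302, limma, adjusted p = 0.000223). The 5 same-numbered pairs differed by a narrow -2.86 to -2.47, and every library series showed it.

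Dcn was also lower in the Pcgf1-KO EB of all 5 pairs, with differences of -4.21 to -2.10, although the ranges of the groups overlapped. It did not pass without the replicate block (-3.03, SE 0.870, limma, adjusted p = 0.0864) and passed with it (SE 0.639, adjusted p = 0.0073). Tagln had differences of -1.57 to -0.69 in the 5 pairs and did not pass (-1.12, SE 0.422, limma, adjusted p = 0.236, and 0.0814 with the block). Acta2 differed by 0.01 (SE 0.388) and Lox by -0.67 (SE 0.491, limma, adjusted p = 0.707).

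The change from ESC to EB was then compared between Pcgf1-KO and control cells by an interaction term. None of the 8 genes passed in limma without a block, against 0.00486% of all genes, which is 1 gene of 20594. At an unadjusted p under 0.05, 3 of the 8 and 1195 of all genes remained. For Thy1 the difference of differences was -2.71 (SE 0.440, limma, adjusted p = 0.0671), and with the replicate block it passed (-2.71, SE 0.458, limma, adjusted p = 0.0117). For Dcn it was -3.71 (SE 1.27, limma, adjusted p = 0.619) without and -4.01 (SE 0.940, limma, adjusted p = 0.0474) with the block. For Lox and Postn it was -0.22 (SE 0.716) and 0.18 (SE 0.605, limma, adjusted p = 1.00 for both).

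**Figure D3:**
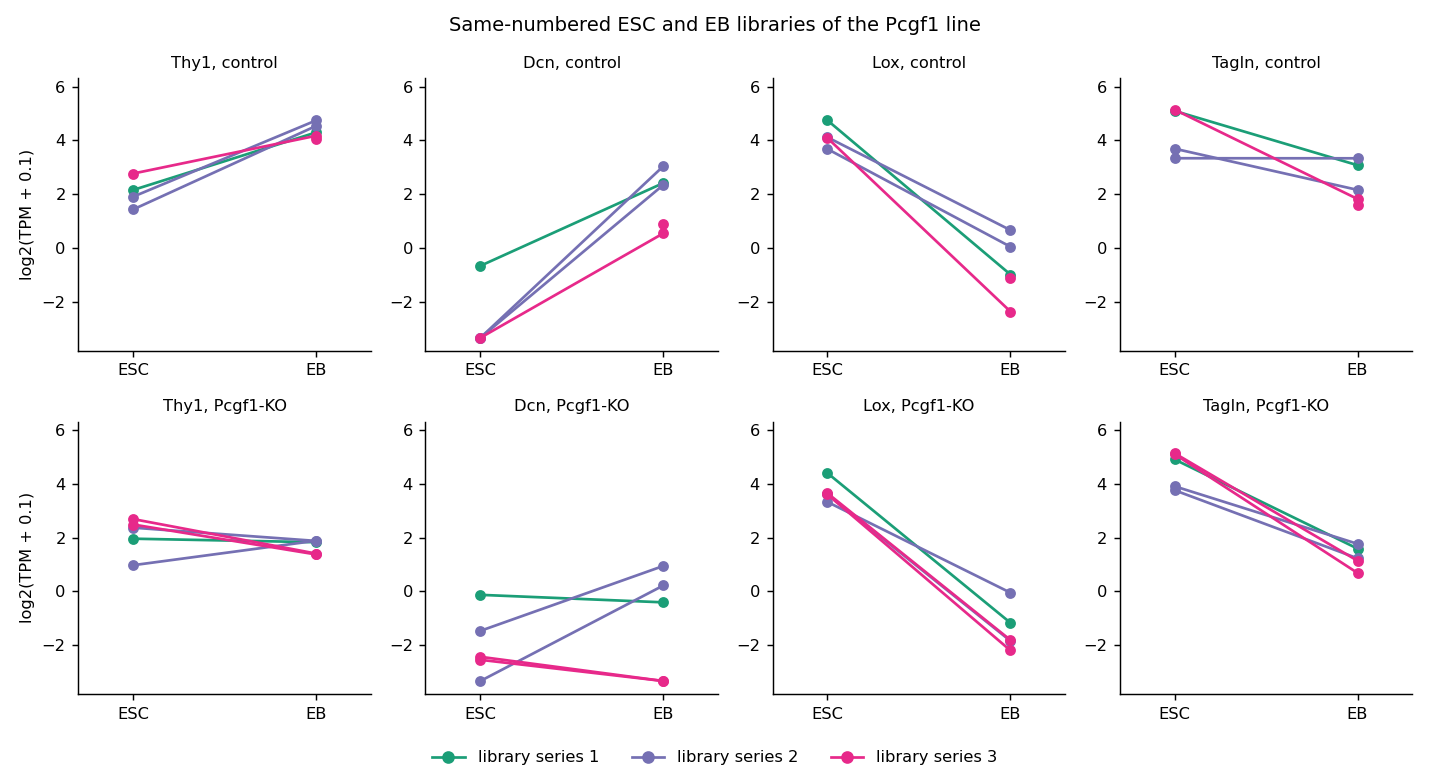
Same-numbered ESC and EB libraries of the Pcgf1 line joined by lines for Thy1, Dcn, Lox and Tagln, as log2(TPM + 0.1), with controls in the upper row, Pcgf1-KO cells in the lower row and a colour for each library series. Thy1 rises in all 4 control pairs and in 1 of 5 Pcgf1-KO pairs, while Lox falls in every pair of both states, and the control EB of replicate 5 has no same-numbered control ESC.

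Because Thy1 is also a gene of T cells and neurons, markers of those cells were read beside it. Of 5 such genes 3 (Tubb3, Snap25 and Syt1) were higher and 1 (Cd3e) lower in control EBs than in control ESCs of the Pcgf1 line, and 1 (Tubb3) was higher in Pcgf1-KO EBs than in Pcgf1-KO ESCs. Snap25, a synaptic vesicle fusion protein, went from 0 to 0.300 TPM in control ESCs to 1.42 to 3.83 TPM in control EBs (log2 fold change 3.36, SE 0.536, limma, adjusted p = 0.000141). It was at 0.153 to 0.639 TPM in Pcgf1-KO EBs, below control EBs without overlap (-2.31, SE 0.505, limma, adjusted p = 0.0219). Tubb3, a neuronal tubulin, rose in both states, by 1.84 (SE 0.258) in controls and 1.66 (SE 0.243) in Pcgf1-KO cells (limma, adjusted p = 3.99e-05 and 8.07e-05). Cd3e, a subunit of the T cell receptor complex, lay between 7.69 and 14.0 TPM in control ESCs and fell by 1.70 (SE 0.520, limma, adjusted p = 0.0218). Without replicate 1 of all groups, or without replicates 2 and 3, 2 genes were called instead of 4, both higher, and Cd3e was not among them. The part of these cell types in the Thy1 values was not tested.

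Other fibroblast genes outside the set were mostly lower in EBs of the Pcgf1 line, among them the collagen genes Col1a1, Col1a2, Col3a1, Col5a1, Col5a2 and Col6a1 in both states. Of 24 such genes 15 were lower and 1, the matrix protease gene Mmp2, higher in control EBs, with a median of -1.83. In Pcgf1-KO EBs 13 were lower and 2, the receptor gene Pdgfra and the transcription factor gene Twist1, higher, with a median of -1.34. The genes named here beyond the 3 most abundant of each list were chosen after their values were seen. Fibronectin (Fn1) fell from 954 to 3523 TPM in control ESCs to 132 to 391 TPM in control EBs (-2.62, SE 0.512, limma, adjusted p = 0.000928). Sparc, a collagen-binding matrix protein, fell from 576 to 734 TPM to 113 to 191 TPM (-2.09, SE 0.227, limma, adjusted p = 2.82e-06), and vimentin (Vim), an intermediate filament protein, fell by 1.47 (SE 0.234, limma, adjusted p = 0.000138). The summed level of the 24 genes ranged from 2133 to 4890 TPM over control ESCs and from 393 to 750.3 TPM over control EBs.

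Proteoglycans related to Dcn and Lum did not rise with Dcn. Of 7 genes of this kind 3 (Bgn, Fmod and Prelp) were lower and none higher in control EBs, and the same 3 were lower in Pcgf1-KO EBs. Biglycan (Bgn), the closest relative of decorin, fell from 16.6 to 36.1 TPM in control ESCs to 0.712 to 3.26 TPM in control EBs (-3.64, SE 0.537, limma, adjusted p = 6.76e-05). Omd and Ogn were at or below 3.05 TPM in every library of the Pcgf1 and point mutant lines and were not called in either state.

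Of 16 elastic fibre and cross-linking genes, the partners of Fbn1 and Lox, 7 were lower and 1 (Mfap4) higher in control EBs, and 7 were lower and none higher in Pcgf1-KO EBs. Fbln2 fell by 2.92 (SE 0.388) in controls and by 3.66 (SE 0.366) in Pcgf1-KO cells (limma, adjusted p = 2.41e-05 and 1.30e-06), and Loxl2, a relative of Lox, fell by 1.77 (SE 0.365) and dropped by 2.18 (SE 0.344) (limma, adjusted p = 0.00144 and 0.000171). Loxl2 was also lower in Pcgf1-KO EBs than in control EBs (-1.42, SE 0.344, limma, adjusted p = 0.0395), with 1.63 to 4.20 against 4.40 to 10.6 TPM. Fbln1 fell by 1.13 (SE 0.230, limma, adjusted p = 0.00135) in controls.

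Smooth muscle and stress fibre genes did not share the direction of Tagln. Of 10 genes 2 (Cnn1 and Tpm2) were higher and 2 (Actg2 and Des) lower in control EBs, with a median of -0.09, and 3 (Actg2, Cald1 and Des) were lower and none higher in Pcgf1-KO EBs. Tropomyosin 1 (Tpm1) lay between 42.4 and 52.3 TPM in control ESCs and between 53.7 and 55.5 TPM in control EBs (0.23, SE 0.104, limma, adjusted p = 0.126), and caldesmon (Cald1) and smoothelin (Smtn) differed by -0.41 (SE 0.233) and 0.19 (SE 0.358, limma, adjusted p = 0.23 and 0.764).

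Of 9 genes of the TGF-beta pathway, which is known to induce Postn, Acta2 and Lox in fibroblasts, 6 were lower and 1 higher in control EBs. Ctgf, a secreted target of the pathway, fell from 170 to 324 TPM to 12.8 to 16.9 TPM (-4.11, SE 0.225, limma, adjusted p = 1.09e-09), Skil, a feedback inhibitor, rose by 1.66 (SE 0.296, limma, adjusted p = 0.000421), and Smad7, another inhibitor, differed by -0.18 (SE 0.475). In Pcgf1-KO EBs 5 of the 9 were lower and Skil was again higher. The genes of the stem cells themselves moved in the same comparison, with 6 of 8 pluripotency genes lower and 6 of 6 early differentiation genes higher in both states, and their part in the fibroblast gene values was not tested. Of 9 mesoderm and endoderm genes 1 (Dab2) was higher and 2 (Eomes and Sox17) lower in control EBs. Of 6 endothelial and blood genes 5 were tested and none was called by limma in either state, with Cdh5 at or below 0.724 TPM, Ptprc at or below 0.420 TPM and Hbb-b1 at 0.

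Between Pcgf1-KO and control ESCs the medians of the 10 lists lay between -0.30 and 0.44, against -0.02 over all genes, and 0.641% of all genes were called. In ESCs 1 smooth muscle gene (Des) was higher and 1 other fibroblast gene (Tgfbi) and 1 early differentiation gene (Otx2) were lower. In EBs, where 1.08% of all genes were called higher and 0.874% lower, 3 of the 24 other fibroblast genes (Fstl1, Pdgfra and Twist1) were higher and 1 (Mmp2) lower, 2 of 16 elastic fibre genes (Mfap4 and Loxl2) were lower, and Tgfb1 was higher. The endoderm and mesoderm genes Eomes, Gata6 and Gata4 and the pluripotency gene Tfcp2l1 were also higher, and no proteoglycan, smooth muscle or blood gene was called by limma. The medians in EBs were 0.80 over 8 pluripotency genes, 0.68 over 9 mesoderm and endoderm genes (3 called) and -0.77 over 6 early differentiation genes (none called by limma), against -0.03 over all genes, and -0.11 over the 24 other fibroblast genes.

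Within the point mutant line the levels were set differently from the start. Thy1 was at 24.5 and 30.9 TPM in its control ESCs, and Lox at 3.16 and 2.03 TPM and Postn at 0.855 and 0.903 TPM, each outside the range of control ESCs of the Pcgf1 line. The lines were not tested against each other, since line and library preparation cannot be told apart. In both states both EB libraries lay below both ESC libraries for Lox, Tagln, Acta2 and Fbn1 and above them for Dcn. Few of these differences passed with 2 libraries a group. How many of all genes kept such an order was not counted.

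In control cells of this line 1 of the 8 genes, Acta2, was lower in EBs, against 2% of 20279 genes tested, and none was higher, against 2.73%. It had 8.63 and 2.86 TPM in control ESCs and 0.650 and 0.434 TPM in control EBs (-3.01, SE 0.619, limma, adjusted p = 0.04), and the call was lost when any 1 of the 8 libraries of the line was left out. Tagln went from 10.3 and 4.54 to 2.01 and 1.52 TPM (-1.91, SE 0.471, limma, adjusted p = 0.0685) and passed with the replicate number as a block (limma, adjusted p = 0.0273). Lox went from 3.16 and 2.03 to 0.585 and 0.716 TPM (-1.82, SE 0.513, limma, adjusted p = 0.0996) and Dcn from 0.0795 and 0 to 0.583 and 0.535 TPM (2.30, SE 0.636, limma, adjusted p = 0.0947). Neither Thy1 (-0.25, SE 0.163) nor Postn (0.19, SE 0.474) differed beyond the spread of its libraries.

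In mutant cells none of the 8 genes was called between EBs and ESCs by limma without a block, against 0.133% of all genes, and 4 of the 8 and 1974 of all genes had an unadjusted p under 0.05. Acta2 came nearest, going from 22.6 and 10.5 to 0.380 and 0.650 TPM (-4.69, SE 0.619, limma, adjusted p = 0.0566). Tagln went from 27.3 and 14.1 to 2.29 and 2.78 TPM (-2.92, SE 0.471, limma, adjusted p = 0.109) and Lox from 6.72 and 2.82 to 0.650 and 0.986 TPM (-2.31, SE 0.513, limma, adjusted p = 0.209). With the replicate number as a block Acta2 and Tagln passed (limma, adjusted p = 0.0289 and 0.0399) and Lox did not (limma, adjusted p = 0.112). Same-numbered libraries of this line deviated together in 12 of 12 pairs (r = 0.106 to 0.381 across genes), while the labels name nothing that they share. With 2 libraries a group, replicates 1 and 2 give the same r, so the 12 pairs are not separate observations.

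Between mutant and control ESCs of this line none of the 8 genes was called by limma, against 2.54% of all genes, and 4 of the 8 and 3388 of all genes had an unadjusted p under 0.05. Thy1, Postn, Fbn1, Acta2 and Tagln had higher values in both mutant libraries than in both controls, and the share of all genes with this order was not counted. The largest of these differences was that of Fbn1, with 5.58 and 5.88 TPM against 2.24 and 1.36 TPM (1.66, SE 0.433, limma, adjusted p = 0.0992). All genes had a median shift of 0.12 in this comparison and of 0.10 in EBs.

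In EBs 1 of the 8 genes, Thy1, was higher in mutant cells, against 3.76% of all genes called higher. The mutant EBs had 46.1 and 45.1 TPM of Thy1 and the control EBs 21.6 and 24.9 TPM (0.97, SE 0.163, limma, adjusted p = 0.0238). The value without 1 library lay between 0.87 and 1.07, and the call was lost when any 1 of the 4 EB libraries or of the 2 mutant ESC libraries was left out. Fbn1 was at 2.25 and 4.11 against 0.890 and 1.296 TPM (1.42, SE 0.433, limma, adjusted p = 0.114). None of the 8 passed the interaction term by limma, against 0.00986% of all genes, and none had an unadjusted p under 0.05, while 1076 of all genes did. Of the 24 other fibroblast genes 9 were higher and none lower in mutant EBs, among them Sparc (0.75, SE 0.128, limma, adjusted p = 0.0249).

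Between control EBs and ESCs 3 of the 24 other fibroblast genes (Sparc, Timp1 and Vim) were lower and 2 (Mmp2 and Thbs2) higher, Skil was higher and Smad7 lower, and no proteoglycan, elastic fibre or smooth muscle gene was called by limma. The stem cell genes did change, with 6 of 8 pluripotency genes lower and 5 of 6 early differentiation genes higher. The summed level of the other fibroblast genes was 715 and 794 TPM in control ESCs and 408 and 518 TPM in control EBs. In mutant cells no fibroblast, proteoglycan, elastic fibre, smooth muscle or TGF-beta gene was called between the stages, and 1 early differentiation gene (Otx2) was.

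**Figure D4:**
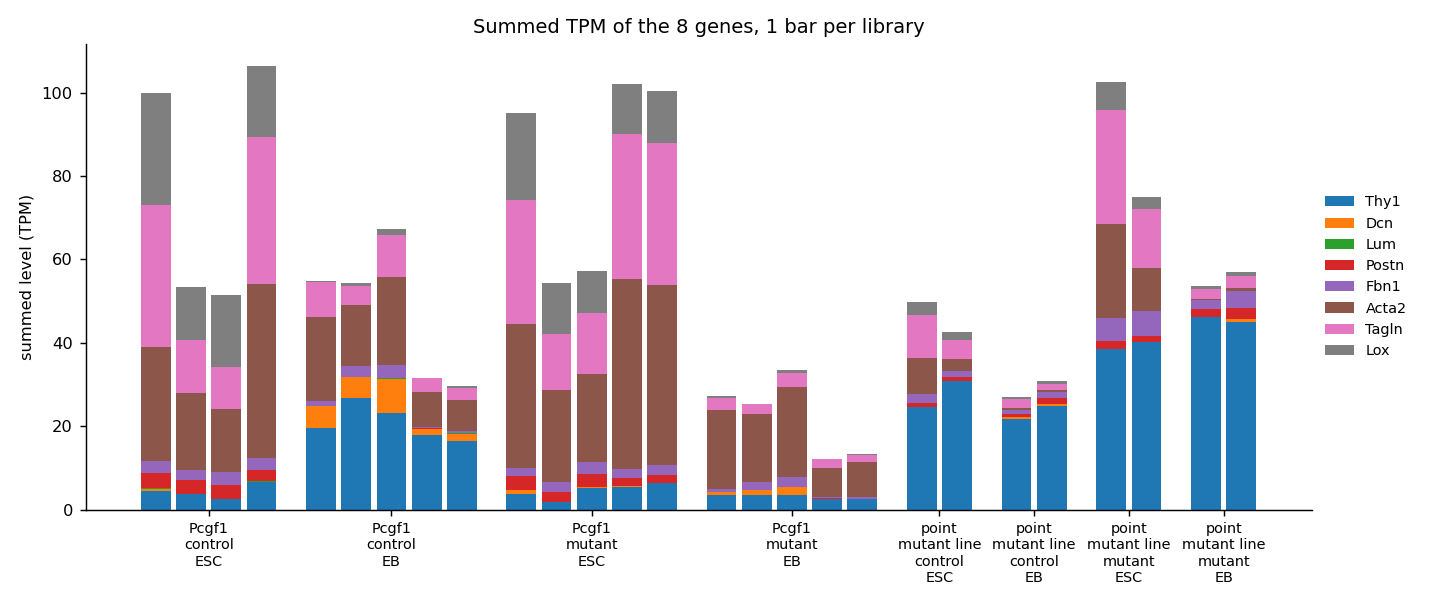
Summed TPM of the 8 genes as 1 stacked bar per library, for the 19 libraries of the Pcgf1 line and the 8 of the point mutant line, with a colour for each gene. Acta2, Tagln and Lox make up most of each bar in Pcgf1 line ESCs, Thy1 most of each bar in EBs of the point mutant line.

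The sum of the 8 genes hid these opposite movements. In the Pcgf1 line it ranged from 51.5 to 106 TPM over control ESCs and from 29.6 to 67.3 TPM over control EBs. Over Pcgf1-KO ESCs it ranged from 54.3 to 102 TPM and over Pcgf1-KO EBs from 12.2 to 33.5 TPM. In control EBs Thy1 supplied 34.5% to 56.7% of the sum, while in control ESCs it supplied 4.39% to 6.86%. Lox supplied 15.9% to 33.5% in control ESCs and at most 2.22% in control EBs. In the point mutant line the sum was 42.6 and 49.8 TPM in control ESCs and 27.03 and 30.8 TPM in control EBs, of which Thy1 was 80.0% and 80.6%.

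Across the 19 libraries of the Pcgf1 line, log2(TPM + 0.1) of Tagln and Lox had a Pearson r of 0.910, Postn and Lox 0.906 and Acta2 and Tagln 0.852. Thy1 and Dcn had an r of 0.758 with each other and of -0.280 and -0.422 with Lox. The libraries share stages and series, so these values describe the pattern and carry no p. Across all 59 libraries the mean of the 8 genes on the log2 scale had an r of 0.844 with Lox, 0.831 with Fbn1 and 0.775 with Postn, against 0.186 with Thy1 and -0.181 with Dcn. The 10 other genes of at least 1 TPM on average that followed this mean most closely, out of 13718, were Cab39 (r = 0.833), Timp3 (0.815), Prss23 (0.811), Tes (0.808), Zfp703 (0.808), Parva (0.808), Ppp1r15a (0.806), Csf1 (0.805), Mier3 (0.803) and Lhfpl2 (0.803). Only 2 of these 10, Timp3 and Prss23, were among the 10 closest when the 27 libraries of the Pcgf1 and point mutant lines were used.

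The 4 remaining lines were tested by their labels. In the Ring1A/B, Pcgf2/4 and Pcgf6 lines the file names made every labelled EB library a mutant and every labelled ESC library a control. Each labelled stage there held libraries named ESC and libraries named EB. By file name, the contrasts of these lines thus set mutants against controls rather than EBs against ESCs. In the Ring1A/B line 5 of the 8 genes were called higher and 1 lower in labelled EBs, against 39.1% and 19.4% of 20344 genes. Thy1 was at 22.8 to 39.9 TPM in the 4 labelled EB libraries and 7.23 to 17.4 TPM in the 4 labelled ESC libraries (1.45, SE 0.0512, limma, adjusted p = 6.04e-07), and Fbn1 at 5.93 to 8.30 against 1.10 to 2.71 TPM (2.00, SE 0.103, limma, adjusted p = 3.12e-06). Postn was higher in labelled EBs by 1.98, Acta2 by 1.20 and Lox by 0.35 (SE 0.352, 0.0613 and 0.116, limma, adjusted p = 0.00189, 3.10e-06 and 0.0335). Dcn was lower by 1.43 (SE 0.403, limma, adjusted p = 0.0175). The median shift of all genes was 0.19, and with median-of-ratios scaling Lox no longer passed (0.20, limma, adjusted p = 0.176). When 1 library was left out, Lox was no longer called in 6 of 8 cases (all but replicate 1 of the mutant ESCs and replicate 2 of the mutant EBs) and Dcn in 5 of 8 (each of the 4 labelled ESC libraries and replicate 2 of the control EBs).

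In this line 4 of the 8 libraries had another stage in the file name than in the label. The direction of 3 genes called by label turned when these were left out. The libraries left were the 2 control ESC and the 2 mutant EB libraries, so that stage and the deletion of Ring1B cannot be told apart in them. Between these mutant EBs and control ESCs Postn differed by -1.73, Acta2 by -0.75 and Lox by -4.49 (limma, adjusted p = 0.0402, 0.000875 and 4.10e-05), and Dcn by less than 0.01. Tagln, which was not called by label (0.09 with the replicate block), also turned. It was at 24.7 and 21.6 TPM in these control ESCs and at 2.88 and 2.26 TPM in these mutant EBs. In all 2 of the 8 genes were called higher and 4 lower there, against 37.2% and 18.8% of 19615 genes. Klf4, a pluripotency factor, was at 665 to 766 TPM in the 4 libraries named ESC and 7.38 to 118 TPM in the 4 named EB, and Fgf5, an early differentiation marker, at 0.465 to 0.816 against 8.71 to 27.98 TPM. By label the same genes ranged from 7.38 to 766 TPM and from 0.465 to 27.98 TPM within labelled ESCs. Lox was at 15.9 to 34.6 TPM in libraries named ESC and 0.554 to 0.947 TPM in those named EB.

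In the Pcgf2/4, Pcgf3/5 and Pcgf6 lines none of the 8 genes was called between labelled EBs and labelled ESCs by limma, against 0%, 0.00501% and 0.0406% of all genes, and an unadjusted p under 0.05 was reached by 1, 1 and 3 of the 8 and by 385, 747 and 2516 of all genes. In each of these lines both labelled stages mixed libraries named ESC with libraries named EB. The counts by label therefore do not compare the stages of the file names. Lum was listed at 0 in all 8 Pcgf3/5 libraries and was not tested there. Without the 4 Pcgf2/4 libraries whose file name gives another stage, 3 genes were called higher and 2 lower, against 17.1% and 10.9% of 18518 genes. Without 2 Pcgf3/5 libraries 2 were called higher and 4 lower, against 22% and 19.3% of 19650 genes, and without 4 Pcgf6 libraries 2 higher and 1 lower, against 9.4% and 6.84% of 18832 genes. The Pcgf2/4 and Pcgf6 libraries left were ESCs of replicate 1 and EBs of replicate 2, 2 of each. By file name these ESCs were all controls and these EBs all mutants, so stage cannot be told apart from replicate number or gene deletion in them. In both lines every replicate 1 library was named ESC and every replicate 2 library EB. Same-numbered libraries of these lines deviated together (r = 0.616 to 0.758 and 0.281 to 0.759 across genes), which cannot be told apart from the stage in the file name.

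Read by the stage in the file name, as a description, Lox, Acta2 and Dcn had ranges that did not overlap between stages in each of these 3 lines. The share of all genes with such separate ranges was not counted. Lox was at 2.14 to 3.00 TPM in Pcgf2/4 libraries named ESC and 0.0588 to 0.382 TPM in those named EB, at 3.50 to 4.83 against 0.0482 to 0.219 TPM in the Pcgf3/5 line, and at 1.67 to 5.51 against 0 to 0.879 TPM in the Pcgf6 line. Acta2 was at 3.68 to 7.61 against 0 to 0.202 TPM, 2.83 to 3.86 against 0.139 to 0.321 TPM, and 6.02 to 25.7 against 0.123 to 0.587 TPM. Dcn was the other way round, at 0 to 0.413 TPM in libraries named ESC and 0.997 to 2.11 TPM in those named EB of the Pcgf2/4 line, 0 to 0.0882 against 0.610 to 1.20 TPM in the Pcgf3/5 line, and 0 in all 4 against 0.456 to 0.668 TPM in the Pcgf6 line.

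Thy1 was higher in libraries named EB in the Pcgf2/4 line (11.5 to 14.0 against 3.35 to 4.12 TPM) and the Pcgf3/5 line (11.6 to 25.5 against 1.62 to 4.95 TPM), and overlapped in the Pcgf6 and Ring1A/B lines. Tagln overlapped in the Pcgf2/4 line at 10.9 to 18.1 and 12.3 to 17.6 TPM. In the Ring1A/B line Dcn overlapped, at 0 to 0.0812 TPM in libraries named ESC and 0 to 0.954 TPM in those named EB. There Acta2 did not overlap, at 21.7 to 73.6 against 7.62 to 14.0 TPM, nor did Postn or Tagln. Over all 16 libraries named ESC of the 4 lines Fgf5 did not exceed 0.816 TPM, and over all 16 named EB it was not below 7.53 TPM.

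**Figure D5:**
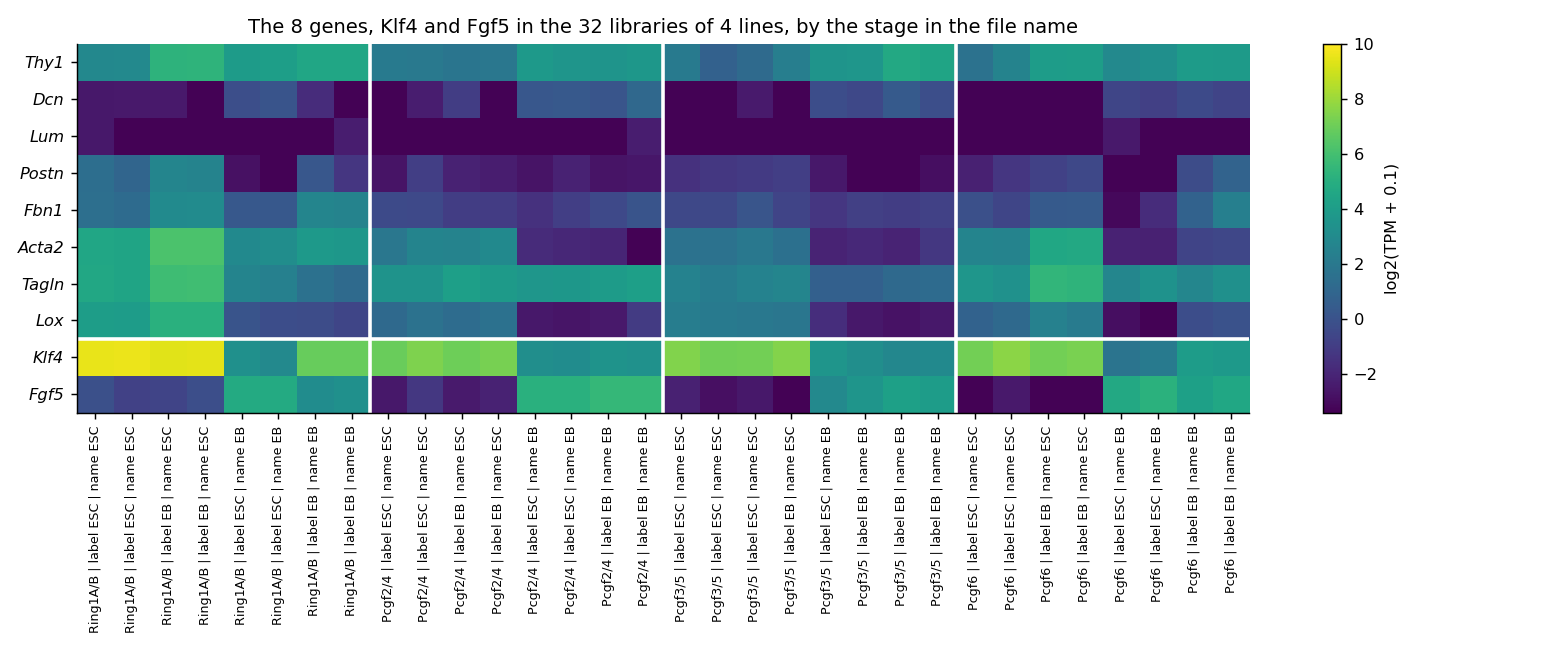
Level of the 8 genes, Klf4 and Fgf5 as log2(TPM + 0.1) in 32 libraries of 4 lines (Ring1A/B, Pcgf2/4, Pcgf3/5, Pcgf6), ordered within each line by the stage in the file name, with the stage of the label written beside it. Fgf5 changes at the boundary of the file name stage in each line, with at most 0.816 TPM in libraries named ESC and at least 7.53 TPM in those named EB.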

How the data were processed

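The authors deposited 1 table of TPM, a length- and depth-scaled level, per library from poly(A) RNA-seq with single-end reads of 50 or 75 bases. They aligned reads to mm9 with STAR 2.5.2b and counted them over exons. TPM keeps no depth, so total reads and counting errors are not given here, and the number of replicates sets the precision. The 59 libraries were grouped by their labels.

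Log2(TPM + 0.1) was fitted with limma 3.58.1 (R 4.3.3, intensity trend), with 1 fit per line over its 4 groups and over all genes above 0 in at least 1 library of that line, and the labels of the 4 lines named last were fitted by stage and state. Benjamini-Hochberg adjustment ran over all genes of the fit, and SEs are from limma. Every script of the fit was tested on simulated data. Levels, ranges and correlations were computed with Python 3.11.15. Named were the 8 genes, the 3 most abundant genes of each list over the 27 libraries of the Pcgf1 and point mutant lines, and the 10 genes most correlated with the mean of the 8. The lists were proteoglycans, elastic fibre, smooth muscle, other fibroblast, TGF-beta, pluripotency, early differentiation, mesoderm and endoderm, endothelial and blood, and T cell and neuron genes. The 8 genes and the lists were chosen with earlier results of these data known.

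In the Pcgf1 line the titles number the replicates, and same-numbered libraries deviated together in 27 of 27 pairs (r = 0.317 to 0.653 across genes). Since replicate numbers lie within the library series, this r cannot tell a shared number from a shared series. The replicate block is given where it changes a call. For 1 Pcgf1-KO EB library the title gives replicate 4 and another label replicate 5, and the title was used. Alternatives were a pseudocount of 1, a filter at a mean of 1 TPM, median-of-ratios and quantile scaling, fits of the compared groups only, the replicate block, each library left out and, in 4 lines, libraries with another stage in the file name left out. Blocking by library series and leaving each series out were added after the data were seen. Promoters came from RefSeq (GRCm38.p6) and mm9 positions from GENCODE vM1.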

Additional observations from a re-analysis of the deposited data

Results flagged for a closer look

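Dcn was at 0.536 TPM in replicate 1 of the Pcgf1 control ESCs and listed at 0 in the other 3 libraries, which set this library apart from its group. Lox was at 20.9 TPM in replicate 1 of the Pcgf1-KO ESCs, above the other 4 libraries at 9.89 to 12.4 TPM. Of 35 groups of 4 or 5 libraries examined gene by gene, these were the 2 with a sample far from the others, and chance alone sets apart about 1 group in 20. Thy1 differed between mutant and control EBs by -2.69 in the Pcgf1 line and by 0.97 in the point mutant line, with every library of one line moving against those of the other, and the difference between the lines was not tested.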

How the results depend on the processing

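No count in TPM tables gives the depth, so the precision of low values such as those of Dcn and Lum is unknown. Of 269 counts of the 8 genes under other settings 231 stayed within 1.5 times the reported count and 38 moved, and of 401 fold changes of called genes 357 kept their call, 40 lost it and 4 reversed. Of the counts over lists, 2337 stayed and 353 moved. For Pcgf1-KO against control EBs 2 genes were called, not 1, with a pseudocount of 1, the replicate block or the library series block, and 1 to 2 when a library was left out. The interaction term of that line gave 1 gene, not 0, with a pseudocount of 1, the filter at a mean of 1 TPM, median-of-ratios or quantile scaling, 2 with the replicate block or the series block, and 0 to 1 when a library was left out. Between EBs and ESCs, 5 genes were called in Pcgf1 controls without any 1 library, and 3 to 5 in Pcgf1-KO cells, where 4 were reported. The replicate block changed no other call of the Pcgf1 line beyond those given, and the series block also added Fbn1 in controls. In the point mutant line, where the labels give same-numbered libraries nothing in common but the number (r = 0.106 to 0.381), the replicate block gave 2 genes, not 1, between control EBs and ESCs and 2, not 0, between mutant EBs and ESCs. There the control count was 0 with a pseudocount of 1, with a fit of the compared groups only and without any 1 library, and 2 with the filter at a mean of 1 TPM. The mutant count was 1 with that filter or quantile scaling. Mutant against control EBs gave 0 with a fit of the compared groups only and 0 to 1 when a library was left out. In the Ring1A/B line 4 to 6 genes were called when a library was left out. There Lox reversed to -0.0177 with quantile scaling, and without libraries of another stage in the file name, which leaves control ESCs and mutant EBs only, Postn reversed to -1.73, Acta2 to -0.75 and Lox to -4.49. Without such libraries 5 genes were called in the Pcgf2/4 line (3 higher and 2 lower, against 17.1% and 10.9% of all genes), 6 in the Pcgf3/5 line (2 and 4, against 22% and 19.3%) and 3 in the Pcgf6 line (2 and 1, against 9.4% and 6.84%), where 0 were reported. In the Pcgf2/4 and Pcgf6 lines this leaves only ESCs of replicate 1, all controls by file name, and EBs of replicate 2, all mutants by file name. Apart from fewer libraries in a fit, the cause was not tested.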
